A study of Mus musculus with 8 samples.

Results

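The autophagy machinery is described here as a list of 34 genes, taken from the deposited expression table by gene symbol alone. Each of the 34 matched 1 of the table's 54532 genes. No cutoff on expression picked them, but the list was drawn up with earlier results of these data known. The RNA came from mouse bone marrow derived macrophages, phagocytes grown from marrow in culture, and was selected by its poly(A) tails. The 4 groups were spermine with 3 h of IFN-β, spermine at 0 h of IFN-β, PBS with 3 h of IFN-β, and PBS at 0 h of IFN-β, with 2 libraries in each. Spermine is a polyamine that cells also make themselves, IFN-β is a type I interferon, and PBS is the salt buffer given to the control cells. The sample labels name PBS where the series text names DMSO, and the extraction text names blood where the labels name macrophages. The sources used here give no strain, genotype or age, no dose or duration for spermine, and no dose for IFN-β. No group spent 3 h without IFN-β, so a change with IFN-β cannot be told apart from an effect of those 3 h.

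Autophagy is the process by which a cell encloses part of its own content in a double membrane, the autophagosome, and delivers it to lysosomes. A kinase complex around ULK1 starts it, a lipid kinase complex around VPS34 marks the membrane with the lipid PI3P, and ubiquitin-like enzymes attach proteins of the LC3 and GABARAP families to the growing membrane, where receptors dock their cargo. In macrophages the same machinery removes damaged organelles and microbes, and some of its parts also attach LC3 to phagosomes. The values below are mRNA levels. Autophagosomes, protein levels and the flow of cargo to lysosomes were not measured.

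Reads counted on the table's genes, rebuilt from their FPKM, numbered between 15723437 and 17744844 per library. The test, limma, was run on the 11421 genes that reached 1 FPKM in 2 or more libraries. FPKM is the number of fragments per kilobase of gene, scaled by the authors for sequencing depth. All 34 members passed this filter, with a median level of 9.52 FPKM, against 5.70 FPKM over all genes tested. The 8 macrophage markers were all present, with a summed level between 10466 and 12968 FPKM per library. Markers of neutrophils summed to at most 8.32 FPKM with Ly6g at 0, and those of T and NK cells to at most 4.19 FPKM with Cd3d, Cd3e and Ncr1 at 0. The B cell, fibroblast, erythroid and mast cell lists stayed below 1 FPKM in every library, with Hba-a1, Hbb-bs, Fcer1a and Mcpt8 at 0. The 5 dendritic cell markers, of which Xcr1 alone reached the test, summed to 5.72 to 6.62 FPKM in spermine 3 h, 1.24 to 1.25 in spermine 0 h, 3.28 to 4.65 in PBS 3 h and 0.411 to 0.414 in PBS 0 h, and their part in the results below was not tested. In such bulk RNA, fewer cells of a type and less RNA per cell cannot be told apart.

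Every change below is a log2 change of FPKM + 1 with its standard error (SE), levels are mean FPKM ± SD (n = 2 libraries), and a gene is said to have changed when its two-sided limma p, adjusted over all 11421 genes, is under 0.05. The labels do not say whether the 2 libraries of a group came from separate animals or cultures, so the spread behind these p-values is between libraries and could be technical. The deposited scale holds the median gene near no change, and the medians of all genes lay between -0.02 and 0.01 in the 5 comparisons. Rescaling each library to TPM, which makes all libraries sum to the same total, moved the IFN-β changes by a median of -0.33 in spermine and -0.46 in PBS, the spermine changes by -0.20 at 3 h and -0.34 at 0 h, and the difference between the IFN-β responses by 0.14. Directions are therefore relative to the median gene, and where TPM rescaling turned or ended one, its value is given.

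With IFN-β, more of the machinery fell than rose in both treatments. The falls included all 5 genes of membrane supply and PI3P binding, while of the 5 LC3 and GABARAP genes only Gabarapl1 fell, or, after TPM rescaling, 4 of 5 in spermine and 5 of 5 in PBS. In spermine, 16 members fell and 5 rose at 3 h relative to 0 h, or 61.8% of the list, against a background of 41.7% of all genes tested. The members' shares were 47.1% falling and 14.7% rising, against 22.1% falling and 19.7% rising over all genes. In PBS, 16 members fell and 8 rose, or 70.6% against a background of 49.6%, with 47.1% falling and 23.5% rising against 25.0% and 24.6% over all genes. The median member changed by -0.19 in spermine and by -0.15 in PBS, against -0.01 and -0.02 for all genes. After TPM rescaling the members split into 25 falling and 2 rising in spermine and into 26 falling and 4 rising in PBS. Without PBS 0 h replicate 1 the count of members changed in PBS was 15.

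Relative to PBS, spermine-treated macrophages had higher levels of LC3 and GABARAP genes at both times, while the count of members changed was close to the background. At 0 h, 13 members rose and 1 fell with spermine, or 41.2%, which equals the background of 41.2%. The direction was unequal, with 38.2% rising and 2.94% falling, against 22.0% and 19.2% over all genes. At 3 h, 9 members rose and 4 fell, or 38.2% against a background of 40.5%, with 26.5% rising and 11.8% falling against 19.9% and 20.6%. The median member changed by 0.12 at both times. This balance depends on the scaling, since TPM rescaling gave 5 rising and 14 falling at 0 h and 7 rising and 6 falling at 3 h.

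**Figure D1:**
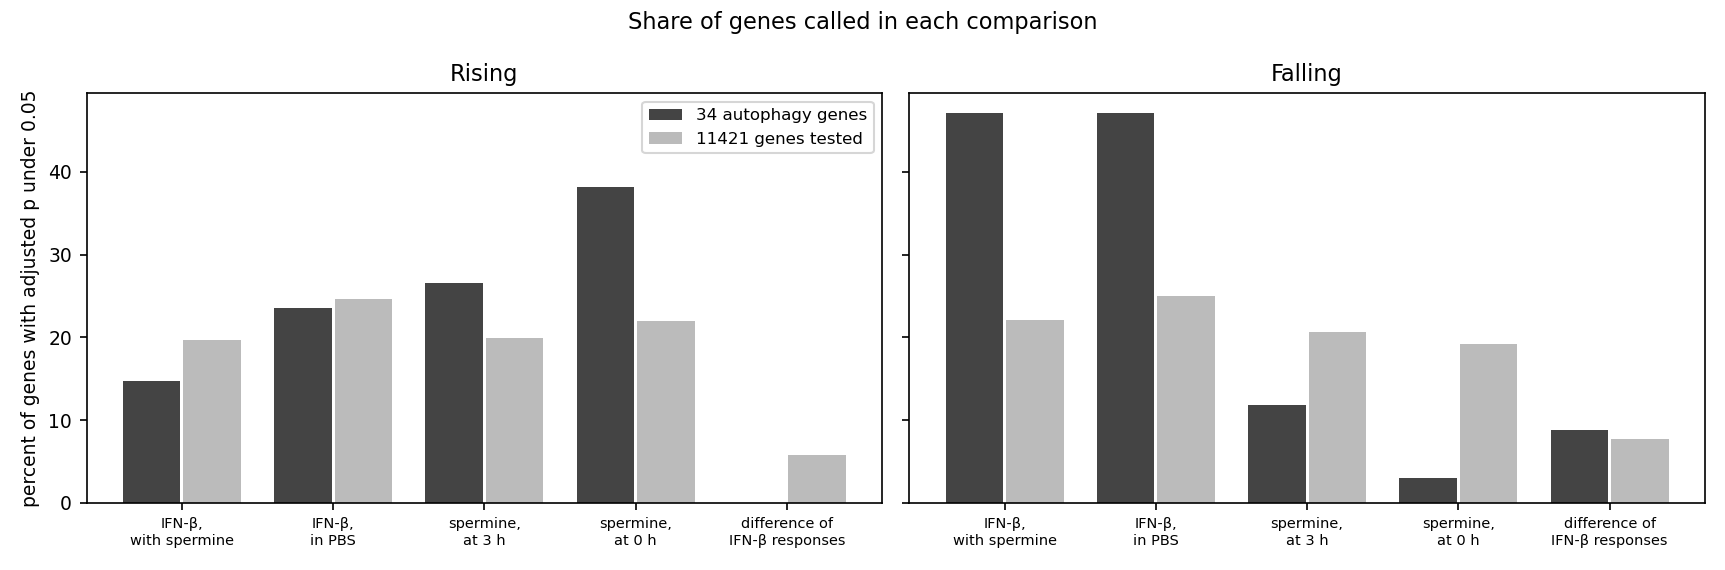
Percent of genes with an adjusted p under 0.05 in each comparison, rising on the left and falling on the right, for the 34 autophagy genes (dark bars) and all 11421 genes tested (light bars). Falling members made up 47.1% in both IFN-β comparisons, and rising members 38.2% with spermine at 0 h.

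**Figure D2:**
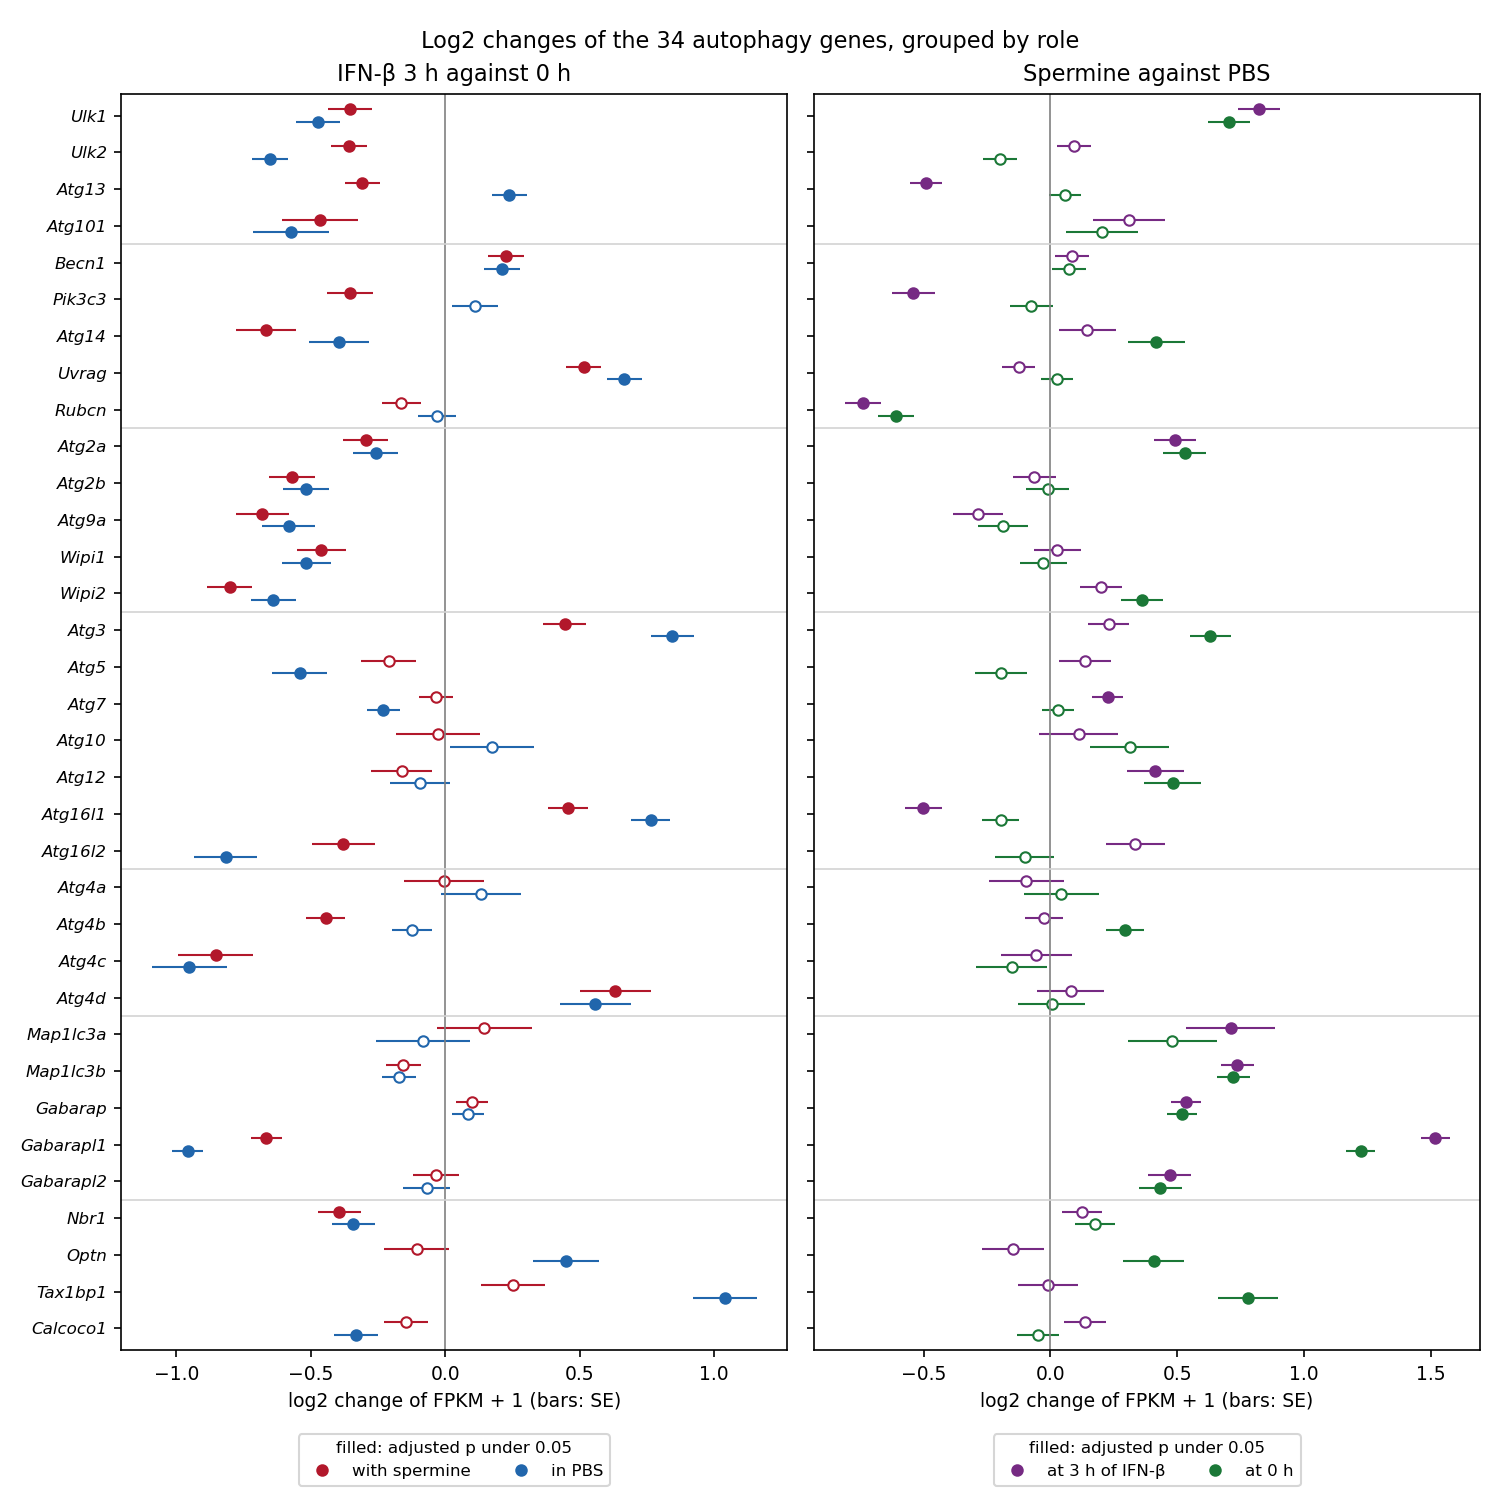
Log2 change of FPKM + 1 with its SE for each of the 34 genes, in bands by role, with IFN-β on the left and spermine on the right. Filled points have an adjusted p under 0.05. All 5 genes of membrane supply and PI3P binding lie to the left of 0 with IFN-β, and all 5 LC3 and GABARAP genes to the right of 0 with spermine.

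The ULK kinase complex receives the signal to start. Its kinase Ulk1 (ENSMUSG00000029512, chromosome 5, 110784488 to 110810097 on the minus strand of GRCm38) had 14.3 and 14.7 FPKM in spermine 3 h, 17.6 and 20.1 in spermine 0 h, 7.63 and 7.89 in PBS 3 h, and 10.8 and 11.6 in PBS 0 h. Both spermine groups lay above both PBS groups with no overlap, and each 3 h group lay below its 0 h group. Ulk1 rose with spermine by 0.71 ± 0.08 at 0 h (adjusted p = 0.000774) and by 0.82 ± 0.08 at 3 h (adjusted p = 0.000423). With IFN-β it changed by -0.35 in spermine (adjusted p = 0.013) and by -0.47 ± 0.08 in PBS (adjusted p = 0.00275). The call in spermine was lost on leaving out spermine 0 h replicate 2 (-0.26), spermine 3 h replicate 1 (-0.34) or spermine 3 h replicate 2 (-0.37).

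The related kinase Ulk2 had 7.48 and 7.75 FPKM in spermine 3 h, 10.3 and 9.83 in spermine 0 h, 7.28 and 6.88 in PBS 3 h, and 11.6 and 11.8 in PBS 0 h. It fell with IFN-β, by 0.36 in spermine and by 0.65 in PBS, and did not pass for spermine on the deposited scale (-0.20 at 0 h, adjusted p = 0.0518, and 0.09 at 3 h). The fall at 0 h passed after TPM rescaling (-0.55, adjusted p = 0.0012), quantile normalization (-0.34, adjusted p = 0.00711) and in limma voom on reads rebuilt from the FPKM (-0.22, adjusted p = 0.0457). The ratio of Ulk1 to Ulk2 FPKM, which no scaling of a library can alter, was 1.91 ± 0.0111 in spermine 3 h, 1.88 ± 0.233 in spermine 0 h, 1.10 ± 0.0698 in PBS 3 h and 0.955 ± 0.036 in PBS 0 h (SD, n = 2 libraries each). Ratios in the spermine libraries were above those in every PBS library. Atg101, a subunit that steadies the complex, fell by 0.46 in spermine and by 0.57 in PBS. In spermine its call was lost on leaving out spermine 0 h replicate 2 (-0.32), either spermine 3 h library (-0.51 and -0.42) or either PBS 0 h library (-0.46 each). In PBS it was lost on leaving out PBS 3 h replicate 1 (-0.39) or PBS 0 h replicate 2 (-0.52).

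Atg13, the adaptor that ties the kinase to its partners, was the member of this complex whose response to IFN-β differed between the treatments (ENSMUSG00000027244, chromosome 2, 91674618 to 91710576, minus strand). It had 14.5 FPKM in both spermine 3 h libraries, 17.6 and 18.8 in spermine 0 h, 20.5 and 21.1 in PBS 3 h, and 17.5 and 17.4 in PBS 0 h. At 3 h the spermine libraries were the lowest of the 8 and the PBS libraries the highest. With IFN-β it changed by -0.31 in spermine (adjusted p = 0.00833, a call lost on leaving out spermine 3 h replicate 1 at -0.30) and by 0.24 in PBS (adjusted p = 0.0186), and the PBS value turned to -0.22 after TPM rescaling and to -0.07 when quantiles were matched. The PBS call was also lost on leaving out either PBS 0 h library (0.24 and 0.23) or PBS 3 h replicate 2 (0.22). At 3 h Atg13 was lower with spermine by 0.49 (log2 change -0.49, adjusted p = 0.00131), and at 0 h the change was 0.06 (adjusted p = 0.509).

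The lipid kinase complex makes PI3P, and its subunits moved in different directions. Becn1, its scaffold, had 11.05 and 11.2 FPKM in spermine 3 h, 9.01 and 9.71 in spermine 0 h, 10.2 and 10.6 in PBS 3 h, and 8.96 and 8.73 in PBS 0 h. Its rises with IFN-β were small, 0.23 in spermine and 0.21 in PBS, and turned to -0.09 and -0.23 after TPM rescaling. The spermine call was kept only on leaving out spermine 0 h replicate 2 or either PBS 3 h library, and the PBS call only without either spermine 0 h library, with values between 0.18 and 0.23 in the fits that lost it. Becn1 also has the largest exon overlap of the list, with 43.9% of its exonic bases shared with Cntd1 on the opposite strand. Cntd1 did not exceed 0.0466 FPKM in any group mean.

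Uvrag and Atg14 encode alternative partners of Becn1, and Rubcn an inhibitor of the Uvrag-containing complex that is also needed for LC3-associated phagocytosis. Uvrag had 12.8 and 13.3 FPKM in spermine 3 h, 8.63 and 9.02 in spermine 0 h, 14.0 and 14.6 in PBS 3 h, and 8.73 and 8.57 in PBS 0 h. It rose with IFN-β by 0.52 in spermine (adjusted p = 0.000863) and by 0.67 ± 0.06 in PBS (adjusted p = 0.000157). Atg14 had 3.54 and 3.81 FPKM in spermine 3 h, 7.04 and 5.83 in spermine 0 h, 3.33 and 3.11 in PBS 3 h, and 4.96 and 4.17 in PBS 0 h. It changed in the other direction, by -0.67 in spermine (adjusted p = 0.00335) and by -0.40 in PBS. The PBS call was lost on leaving out PBS 0 h replicate 1 (-0.29) or either PBS 3 h library (-0.43 and -0.36). The ratio of Uvrag to Atg14 FPKM was 3.56 ± 0.0976 in spermine 3 h against 1.39 ± 0.228 in spermine 0 h, and 4.46 ± 0.343 in PBS 3 h against 1.91 ± 0.209 in PBS 0 h, with no overlap between times. Atg14 was also higher with spermine at 0 h by 0.42, a call lost on leaving out spermine 0 h replicate 1 (0.30) or PBS 0 h replicate 2 (0.31) and after TPM rescaling (0.14).

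Rubcn (ENSMUSG00000035629, chromosome 16, 32821703 to 32877766, minus strand) was the single member that fell with spermine at both times on the deposited scale, while after TPM rescaling Atg13, Pik3c3, Uvrag, Atg9a and Atg16l1 did so as well. It had 4.57 and 4.27 FPKM in spermine 3 h, 5.05 and 5.07 in spermine 0 h, 7.84 and 8.26 in PBS 3 h, and 8.44 and 8.06 in PBS 0 h. Every spermine library was below every PBS library. The changes were -0.61 ± 0.07 at 0 h (adjusted p = 0.000788) and -0.74 ± 0.07 at 3 h (adjusted p = 0.000365), and IFN-β gave -0.16 in spermine and -0.03 in PBS, which did not pass (after TPM rescaling -0.50 and -0.49, both called). Over all genes, 9.8% fell with spermine at both times. The catalytic subunit gene Pik3c3 had 6.41 and 6.07 FPKM in spermine 3 h, 8.67 and 7.85 in spermine 0 h, 9.66 and 9.40 in PBS 3 h, and 9.32 and 8.199 in PBS 0 h. Its spermine 3 h libraries were the lowest of the 8, and at 3 h it fell with spermine by 0.54 (adjusted p = 0.00295). It also fell with IFN-β in spermine by 0.35 (adjusted p = 0.0155), a call lost on leaving out spermine 0 h replicate 1 (-0.29) or either spermine 3 h library (-0.39 and -0.32).

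The 5 genes of membrane supply and PI3P binding fell with IFN-β in both treatments, 5 of 5 in each, also after TPM rescaling. Over all genes, 15.3% fell in both. Wipi2, the PI3P reader that recruits the LC3 enzymes, had 4.46 and 4.45 FPKM in spermine 3 h against 8.85 and 8.18 in spermine 0 h, and 3.65 and 3.85 in PBS 3 h against 6.01 and 6.81 in PBS 0 h. Wipi2 changed by -0.80 ± 0.08 in spermine (adjusted p = 0.000345) and by -0.64 in PBS (adjusted p = 0.000672). Its relative Wipi1 had 3.97 and 3.30 FPKM in spermine 3 h against 5.34 and 5.39 in spermine 0 h, and 3.70 and 3.37 in PBS 3 h against 5.44 and 5.54 in PBS 0 h. The 3 h libraries of both genes lay below all 0 h libraries, and Wipi1 fell by 0.46 in spermine (adjusted p = 0.00699) and by 0.52 in PBS (adjusted p = 0.00303). For spermine itself Wipi1 gave -0.03 at 0 h and 0.03 at 3 h.

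Atg9a, the membrane protein of the vesicles that seed the autophagosome, had 3.25 and 3.96 FPKM in spermine 3 h against 6.19 and 6.53 in spermine 0 h, and 4.66 and 4.53 in PBS 3 h against 7.81 and 6.98 in PBS 0 h. It fell by 0.68 in spermine (adjusted p = 0.00168) and by 0.58 in PBS (adjusted p = 0.00241). Of its exonic bases, 32.6% overlap Gm29253 on the same strand, which was at 0 in every group, or Ankzf1 on the opposite strand. How reads in shared bases were counted is not stated. Atg2a and Atg2b encode lipid transfer proteins that feed the membrane, and they differed in their response to spermine. Atg2a had 12.2 and 12.7 FPKM in spermine 3 h, 14.6 and 16.5 in spermine 0 h, 8.32 and 8.79 in PBS 3 h, and 10.0 and 10.8 in PBS 0 h, so that every spermine library was above every PBS library. It rose with spermine by 0.53 at 0 h (adjusted p = 0.00284, or 0.22 after TPM rescaling, adjusted p = 0.0727) and by 0.49 at 3 h (adjusted p = 0.00396).

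Atg2b did not pass for spermine and fell with IFN-β by 0.57 in spermine and by 0.52 in PBS. The Atg2a to Atg2b ratio was 8.52 ± 0.218 in spermine 3 h, 5.88 ± 0.872 in spermine 0 h, 5.46 ± 0.281 in PBS 3 h and 3.90 ± 0.115 in PBS 0 h, with an overlap between the spermine 0 h and PBS 3 h libraries. The falls of Atg2a with IFN-β were smaller, -0.30 in spermine and -0.26 in PBS. The spermine call was lost on leaving out spermine 0 h replicate 2 (-0.21) or either spermine 3 h library (-0.27 and -0.33), and the PBS call was kept only on leaving out either spermine 0 h library, with values between -0.31 and -0.21 in the other 6 fits. Wipi2 also rose with spermine at 0 h by 0.36 (adjusted p = 0.0129), a call lost on leaving out replicate 1 of spermine 0 h (0.31) or of PBS 0 h (0.28) and after TPM rescaling (0.06).

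The conjugation enzymes build the ATG12-ATG5-ATG16L1 complex and join LC3 to lipid. Atg3, the enzyme that transfers LC3 and GABARAP to lipid, had 24.0 and 23.3 FPKM in spermine 3 h, 17.7 and 16.5 in spermine 0 h, 21.1 and 18.9 in PBS 3 h, and 11.1 and 10.3 in PBS 0 h. The PBS 0 h libraries were the lowest of the 8. Atg3 rose with IFN-β by 0.44 in spermine (adjusted p = 0.00469) and by 0.85 ± 0.08 in PBS (adjusted p = 0.000142), and with spermine at 0 h by 0.63 ± 0.08 (adjusted p = 0.00116). At 3 h spermine gave 0.23 (adjusted p = 0.0586). The change with IFN-β in spermine was 0.13 after TPM rescaling and 0.23 when quantiles were matched, and neither passed.

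Atg16l1, which brings the complex to the membrane, had 4.37 and 4.73 FPKM in spermine 3 h, 3.09 and 2.99 in spermine 0 h, 6.77 and 6.94 in PBS 3 h, and 3.56 and 3.70 in PBS 0 h. It rose with IFN-β by 0.46 ± 0.07 in spermine (adjusted p = 0.00269, or 0.22 after TPM rescaling, adjusted p = 0.068) and by 0.76 ± 0.07 in PBS (adjusted p = 0.000144). At 3 h it was lower with spermine (log2 change -0.50 ± 0.07, adjusted p = 0.00206), and the libraries did not overlap. Its paralog Atg16l2, at 1.08 and 0.94 FPKM in spermine 3 h, 1.497 and 1.73 in spermine 0 h, 0.482 and 0.709 in PBS 3 h, and 1.89 and 1.72 in PBS 0 h, went the other way. Atg16l2 changed by -0.38 in spermine and by -0.82 ± 0.12 in PBS (adjusted p = 0.00109). The call in spermine was kept only on leaving out either PBS 3 h library, with values between -0.44 and -0.31 in the other 6 fits. It was also lost with a pseudocount of 0.1 (-0.63), which weighs low levels more. The Atg16l1 to Atg16l2 ratio was 4.54 ± 0.691 in spermine 3 h against 1.90 ± 0.24 in spermine 0 h, and 11.9 ± 3.00 in PBS 3 h against 2.02 ± 0.183 in PBS 0 h, with no overlap between times.

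Atg5, which ATG12 is joined to, had 15.1 and 14.8 FPKM in spermine 3 h, 18.2 and 16.8 in spermine 0 h, 15.0 and 12.2 in PBS 3 h, and 19.5 and 20.8 in PBS 0 h. With IFN-β it gave -0.21 in spermine (adjusted p = 0.142) and fell in PBS by 0.54 (adjusted p = 0.00393), and the difference between the responses did not pass. Atg12 was higher with spermine by 0.48 at 0 h and by 0.41 at 3 h, but neither call held after TPM rescaling (0.15 and 0.22) or quantile normalization (0.28 at both times). The Atg12 call at 0 h was lost on leaving out spermine 0 h replicate 1 (0.42) or PBS 0 h replicate 2 (0.44), and that at 3 h on leaving out either spermine 3 h library (0.46 and 0.37) or PBS 3 h replicate 2 (0.26). Atg7, the activating enzyme of both conjugation chains, rose with spermine at 3 h by 0.23 and fell with IFN-β in PBS by 0.23. The rise did not hold after TPM rescaling, where none of the conjugation enzymes was called as rising with spermine at 3 h. The first call was lost on leaving out either spermine 3 h library (0.23 and 0.22), PBS 3 h replicate 1 (0.20) or either PBS 0 h library (0.23 each), and the second on leaving out PBS 3 h replicate 1 (-0.20) or either PBS 0 h library (-0.24 and -0.22). Atg10, which joins ATG12 to ATG5, passed in no comparison on the deposited scale.

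The Atg4 proteases trim LC3 and GABARAP before they are attached and free them afterwards. Atg4c had 2.19 and 3.12 FPKM in spermine 3 h against 6.13 and 5.04 in spermine 0 h, and 2.84 and 2.70 in PBS 3 h against 6.57 and 6.03 in PBS 0 h. It changed by -0.85 ± 0.14 with IFN-β in spermine (adjusted p = 0.003) and by -0.95 ± 0.14 in PBS (adjusted p = 0.00123). Atg4d went up, with 4.54 and 4.48 FPKM in spermine 3 h against 2.24 and 2.91 in spermine 0 h, and 3.73 and 4.75 in PBS 3 h against 2.38 and 2.71 in PBS 0 h. Its changes were 0.63 ± 0.13 in spermine (adjusted p = 0.00859) and 0.56 in PBS (adjusted p = 0.0112), the second lost on leaving out PBS 0 h replicate 1 (0.49) or PBS 3 h replicate 2 (0.42) and after TPM rescaling (0.23). Kri1, which overlaps 19.3% of the exonic bases of Atg4d on the opposite strand, had log2 changes of 0.10 in spermine and 0.01 in PBS. Atg4b fell with IFN-β in spermine by 0.44 (adjusted p = 0.00313). It rose with spermine at 0 h by 0.30, a value of 0.01 after TPM rescaling, and that call was lost on leaving out either PBS 0 h library (0.31 and 0.28) or spermine 0 h replicate 2 (0.24). Atg4a passed in no comparison.

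The LC3 and GABARAP genes encode the small ubiquitin-like proteins that are attached to the autophagosome membrane and hold the cargo receptors. All 5 rose with spermine at 3 h and 4 of 5 at 0 h. After TPM rescaling 5 of 5 rose at 3 h and 2 of 5, Gabarapl1 and Map1lc3b, at 0 h. Gabarapl1 had the largest change of the 34 members in both spermine comparisons. The promoters of these 2 genes and of Atg3 are shown because their levels stood apart with spermine at 0 h and their start regions differ in the motifs searched. Each holds 250 bases before to 50 after the start given by RefSeq for GRCm38.p6, on the plus strand. Capitals mark a match to the antioxidant response element core TGACNNNGC, which NRF2 can bind, in Map1lc3b, and to the E-box CACGTG, the centre of the CLEAR element that TFEB can bind, in Atg3. Gabarapl1, at chr6:129532942-129533241, held none of the 7 motifs searched. The members had 34 promoter windows, which covered 29 of the genes. G and C made up a median of 60.8% of the bases in these windows, against 52.7% over all windows. The antioxidant core was in 11.8% of the members' promoter windows against 12.4% of all windows, and the E-box in 14.7% against 7.15%. Whether base content bears on these shares was not tested. The core was also found in Atg13, Tax1bp1 and Ulk2, and the E-box in Atg5, Atg7, Atg14 and Rubcn, so neither was particular to genes that rose with spermine.
Gabarapl1: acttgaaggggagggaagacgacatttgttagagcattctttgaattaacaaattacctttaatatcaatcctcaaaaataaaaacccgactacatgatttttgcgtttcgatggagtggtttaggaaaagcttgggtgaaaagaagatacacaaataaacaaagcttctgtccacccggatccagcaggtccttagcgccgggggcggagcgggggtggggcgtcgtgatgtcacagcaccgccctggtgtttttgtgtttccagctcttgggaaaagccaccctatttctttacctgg
Map1lc3b, chr8:121590188-121590487: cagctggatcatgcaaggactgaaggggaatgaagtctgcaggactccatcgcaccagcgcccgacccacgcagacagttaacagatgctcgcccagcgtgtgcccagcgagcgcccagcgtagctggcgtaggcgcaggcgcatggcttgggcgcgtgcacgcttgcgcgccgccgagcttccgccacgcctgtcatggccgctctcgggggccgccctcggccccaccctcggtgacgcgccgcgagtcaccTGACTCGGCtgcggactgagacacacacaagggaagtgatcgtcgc
Atg3, chr16:45158579-45158878: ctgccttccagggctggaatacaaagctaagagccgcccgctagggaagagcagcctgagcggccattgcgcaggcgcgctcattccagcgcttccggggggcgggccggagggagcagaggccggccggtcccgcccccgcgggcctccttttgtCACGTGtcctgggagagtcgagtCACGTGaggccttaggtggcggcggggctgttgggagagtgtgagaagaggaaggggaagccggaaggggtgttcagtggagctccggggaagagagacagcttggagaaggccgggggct

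Gabarapl1 (ENSMUSG00000030161, chromosome 6, 129533160 to 129542346, plus strand of GRCm38) had 60.9 and 62.2 FPKM in spermine 3 h, 99.8 and 96.6 in spermine 0 h, 20.7 and 21.03 in PBS 3 h, and 41.7 and 41.2 in PBS 0 h. The 4 groups stood apart with no overlap, spermine 0 h highest and PBS 3 h lowest. At 0 h it was 2.37-fold higher with spermine (98.2 ± 2.28 against 41.5 ± 0.335 FPKM, log2 change 1.22 ± 0.06, adjusted p = 2.08e-05). At 3 h it was 2.95-fold higher (61.6 ± 0.88 against 20.9 ± 0.25 FPKM, log2 change 1.52 ± 0.06, adjusted p = 8.59e-06). With IFN-β it changed by -0.67 ± 0.06 in spermine (adjusted p = 0.000129) and by -0.96 ± 0.06 in PBS (adjusted p = 1.28e-05). The gene 1700101I11Rik shares 28.3% of the exonic bases of Gabarapl1 on the opposite strand, and its group means were at most 0.351 FPKM.

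Map1lc3b (ENSMUSG00000031812, chromosome 8, 121590361 to 121598760, plus strand), the LC3 most used to follow autophagosomes, had 42.6 and 42.2 FPKM in spermine 3 h, 45.6 and 49.2 in spermine 0 h, 24.5 and 25.6 in PBS 3 h, and 28.3 and 28.4 in PBS 0 h. Every spermine library was above every PBS library. It rose with spermine by 0.72 ± 0.06 at 0 h and by 0.74 ± 0.06 at 3 h (adjusted p = 0.000255 each). Its changes with IFN-β, -0.16 in spermine and -0.17 in PBS, did not pass on the deposited scale, while TPM rescaling gave -0.49 and -0.65, both called.

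Gabarap, the most abundant of the 34 genes in FPKM, had 294 and 284 FPKM in spermine 3 h, 274 and 265 in spermine 0 h, 203 and 195 in PBS 3 h, and 191 and 184 in PBS 0 h. The spermine libraries were again above all PBS libraries. Its rises were 0.52 ± 0.06 at 0 h (adjusted p = 0.0007) and 0.54 ± 0.06 at 3 h (adjusted p = 0.000654), of which the first did not hold after TPM rescaling (0.18, adjusted p = 0.0532) or quantile normalization (0.09). Gabarapl2 had 23.5 and 22.3 FPKM in spermine 3 h, 23.1 and 23.7 in spermine 0 h, 16.5 and 16.0 in PBS 3 h, and 18.5 and 15.7 in PBS 0 h, with rises of 0.43 at 0 h and 0.47 at 3 h. The 0 h value of Gabarapl2 was 0.11 after TPM rescaling and 0.25 when quantiles were matched, and neither passed. Map1lc3a had 34.0 and 30.1 FPKM in spermine 3 h, 26.2 and 31.7 in spermine 0 h, 16.2 and 22.7 in PBS 3 h, and 18.6 and 22.4 in PBS 0 h. Its libraries scattered more, and it passed at 3 h (0.71 ± 0.18, adjusted p = 0.0175) but not at 0 h (0.48, adjusted p = 0.066). The call at 3 h was lost on leaving out PBS 3 h replicate 1 (0.48) or either spermine 3 h library (0.63 and 0.80).

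Summed over the 5 genes, the level was 448 ± 10.1 FPKM in spermine 3 h against 280 ± 0.074 in PBS 3 h, and 467 ± 2.24 in spermine 0 h against 295 ± 3.93 in PBS 0 h. The table's gene lengths span all exons, at a median of 1.37 times the longest coding transcript over the 34 genes but 2.85 times for Map1lc3b, so its FPKM is understated beside that of Gabarap (1.36 times). The share of each gene in the sum is free of the library's scaling. Gabarapl1 made up 13.8% ± 0.507 of the sum in spermine 3 h, 21.02% ± 0.387 in spermine 0 h, 7.44% ± 0.0872 in PBS 3 h and 14.1% ± 0.074 in PBS 0 h. It was thus a larger part of the family with spermine at each time and a smaller part after IFN-β, and the spermine 3 h and PBS 0 h libraries lay side by side and overlapped. The share of Gabarap took the opposite course, with 64.5% ± 0.142 in spermine 3 h, 57.6% ± 1.19 in spermine 0 h, 70.9% ± 1.88 in PBS 3 h and 63.6% ± 0.625 in PBS 0 h. Parts of the same sum are not independent, and a larger share of Gabarapl1 leaves less for the most abundant gene. The FPKM of Gabarap itself was higher with spermine at both times.

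The receptors bind ubiquitin-tagged cargo, or in the case of Calcoco1 parts of the endoplasmic reticulum, and link it to LC3. Tax1bp1 (ENSMUSG00000004535, chromosome 6, 52713729 to 52766780, plus strand), which also damps inflammatory signalling, had 32.3 and 33.9 FPKM in spermine 3 h, 30.0 and 25.5 in spermine 0 h, 36.9 and 30.0 in PBS 3 h, and 16.2 and 15.1 in PBS 0 h. The PBS 0 h libraries were far below the other 6, which lay between 25.5 and 36.9 FPKM. It rose with IFN-β in PBS by 1.04 ± 0.12 (adjusted p = 0.000346) and with spermine at 0 h by 0.78 ± 0.12 (adjusted p = 0.00238). IFN-β in spermine gave 0.25 (adjusted p = 0.135), and spermine at 3 h gave -0.01 (adjusted p = 0.964, 95% interval -0.29 to 0.27). Optn, a receptor for bacteria and damaged mitochondria, had 7.27 and 8.27 FPKM in spermine 3 h, 9.27 and 7.63 in spermine 0 h, 9.47 and 7.97 in PBS 3 h, and 6.33 and 5.87 in PBS 0 h. Like Tax1bp1 it was lowest in PBS 0 h, with rises of 0.45 with IFN-β in PBS and 0.41 with spermine at 0 h that were 0.03 and 0.11 after TPM rescaling. The first was lost on leaving out either PBS 0 h library (0.50 and 0.40) or PBS 3 h replicate 1 (0.34), and the second without either PBS 0 h library (0.45 and 0.36) or spermine 0 h replicate 1 (0.28).

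Nbr1, a receptor for protein aggregates and peroxisomes, had 17.6 and 17.9 FPKM in spermine 3 h against 24.5 and 22.7 in spermine 0 h, and 16.5 and 15.8 in PBS 3 h against 22.0 and 19.6 in PBS 0 h. It fell with IFN-β by 0.39 in spermine (adjusted p = 0.00737) and by 0.34 in PBS (adjusted p = 0.0102), the second lost on leaving out PBS 0 h replicate 1 (-0.26). Calcoco1 fell in PBS by 0.33 (adjusted p = 0.0132), a call lost on leaving out either PBS 0 h library (-0.34 and -0.32) or PBS 3 h replicate 1 (-0.27). The Tax1bp1 to Nbr1 ratio was 1.87 ± 0.0391 in spermine 3 h against 1.17 ± 0.0693 in spermine 0 h, and 2.07 ± 0.241 in PBS 3 h against 0.755 ± 0.025 in PBS 0 h, with no overlap between times.

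Of the 34 members, 5 rose with IFN-β in both treatments (Becn1, Uvrag, Atg3, Atg16l1 and Atg4d), where 16.2% of all genes did. In both treatments 13 of the 34 fell, where 15.3% of all genes did. After TPM rescaling only Uvrag rose in both and 24 members fell in both. After quantile normalization 3 rose in both and 17 fell in both. With spermine, 7 of the 34 rose at both times (Ulk1, Atg2a, Atg12, Map1lc3b, Gabarap, Gabarapl1 and Gabarapl2), against 13.3% of all genes. This count depended on the scaling. TPM rescaling left 3 rising at both times (Ulk1, Map1lc3b and Gabarapl1), with 6 falling at both. Quantile normalization left 4 rising and 1 falling. The changes in each of these pairs of comparisons come from separate libraries. The spread behind their p-values was estimated over all 8 libraries together, so the calls in a pair are not independent.

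Did spermine alter how the machinery responded to IFN-β? Of the 34 members, 3 had a response that differed between the treatments, all 3 lower in spermine, or 8.82% against a background of 13.6% of all genes, of which 7.75% were lower and 5.82% higher. That direction depended on the scaling, since both TPM rescaling and quantile normalization gave 2 members lower and 2 higher in spermine. The 2 higher were Gabarapl1 and Ulk2, for which the difference was 0.29 on the deposited scale (adjusted p = 0.0916), 0.45 after TPM rescaling (adjusted p = 0.0375) and 0.42 after quantile normalization (adjusted p = 0.028). The 3 were Tax1bp1 (difference of the log2 changes, spermine minus PBS, -0.79 ± 0.17, adjusted p = 0.0267), Atg13 (-0.55 ± 0.09, adjusted p = 0.0125) and Pik3c3 (-0.47 ± 0.12, adjusted p = 0.0498). The Pik3c3 call was lost on leaving out any 1 of the 8 libraries and after TPM rescaling (-0.36, adjusted p = 0.143) or quantile normalization (-0.39, adjusted p = 0.0874). The Atg13 call was lost, at -0.54 to -0.55, without either PBS 0 h library or either spermine 3 h library. The Tax1bp1 call was lost on leaving out either PBS 0 h library (-0.84 and -0.74), PBS 3 h replicate 1 (-0.64), spermine 0 h replicate 1 (-0.67) or either spermine 3 h library (-0.76 and -0.82). The number of such members was 0 without either PBS 0 h library or either spermine 3 h library, and 1 without replicate 1 of spermine 0 h or of PBS 3 h.

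For Gabarapl1 the difference was 0.29 ± 0.08 (95% interval 0.10 to 0.48, adjusted p = 0.0567), a smaller fall in spermine, and it passed after TPM rescaling (0.45, adjusted p = 0.0233) and quantile normalization (0.34, adjusted p = 0.0394). For Map1lc3b it was 0.02 (95% interval -0.20 to 0.23) and for Gabarap 0.01 (-0.18 to 0.21). Atg3 gave -0.40 (adjusted p = 0.064), Atg16l1 -0.31 (adjusted p = 0.101) and Optn -0.55 (adjusted p = 0.0803), none of which passed.

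**Figure D3:**
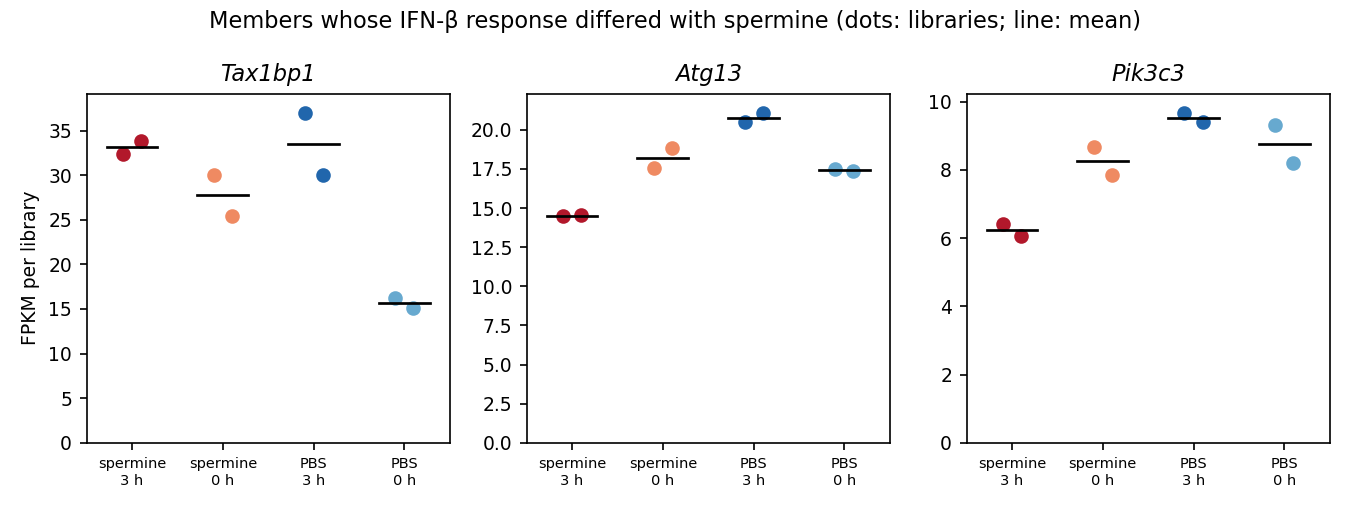
FPKM per library (dots) and group mean (line) of the 3 members whose IFN-β response differed between spermine and PBS. For Tax1bp1 the PBS 0 h libraries (16.2 and 15.1 FPKM) lie far below the other 6, and for Atg13 and Pik3c3 the spermine 3 h libraries are the lowest of the 8.

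Genes that act beside the 34 members were counted in 7 lists, beside shares over all genes of 19.7% rising and 22.1% falling with IFN-β in spermine, 24.6% and 25.0% with IFN-β in PBS, 19.9% and 20.6% with spermine at 3 h, and 22.0% and 19.2% with spermine at 0 h. Leaving out 1 library moved 16 of the 26 counts of 1 or 2 genes by over 1.5 times, and counts above 2 genes that moved as much are named with the library. Of the 15 other receptors that reached the test, 4 rose (26.7%) and 1 fell (6.67%) with spermine at 3 h, and 4 rose (26.7%) and 2 fell (13.3%) at 0 h. TPM rescaling gave 3 rising and 3 falling at 3 h, and 3 rising and 5 falling at 0 h. Sqstm1, which encodes the receptor p62, had a mean of 1373 ± 54.9 FPKM in spermine 3 h against 196 ± 14.9 in PBS 3 h (log2 change 2.80, adjusted p = 7.58e-06), and 1645 ± 155 in spermine 0 h against 321 ± 24.3 in PBS 0 h (2.35, adjusted p = 1.37e-05). It exceeded the summed FPKM of the LC3 and GABARAP genes in both spermine groups, and in PBS 0 h but not in PBS 3 h. The mitophagy receptor gene Bnip3 rose with spermine by 1.07 at 3 h and 1.23 at 0 h, while the ferritin receptor gene Ncoa4 fell by 0.80 at 0 h. With IFN-β, 3 of the 15 fell in spermine (20.0%, under the share of all genes) and 6 in PBS (40.0%), and none rose. The PBS count was 3 without PBS 0 h replicate 1, and TPM rescaling gave 9 and 12 falling. Sqstm1 was among those that fell in PBS (-0.71, adjusted p = 0.000904).

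Of 14 transcription factors of autophagy genes and their regulators, 1 rose (7.14%) and 9 fell (64.3%) with IFN-β in spermine, and 2 rose (14.3%) and 8 fell (57.1%) in PBS. Tfeb, the activator of lysosome and autophagy genes, had 2.83 ± 0.4 FPKM in spermine 3 h against 7.83 ± 1.13 in spermine 0 h (log2 change -1.20, adjusted p = 0.00246), and 1.62 ± 0.611 in PBS 3 h against 8.89 ± 1.39 in PBS 0 h (-1.93, adjusted p = 0.000161). Its relative Tfec went up, by 1.58 in spermine and by 1.92 in PBS. Flcn, a negative regulator of Tfeb and its relative Tfe3, fell with IFN-β by 0.69 in spermine and by 1.31 in PBS. With spermine 8 of the 14 rose (57.1%) and 2 fell at 3 h, and 9 rose (64.3%) and 2 fell at 0 h. The count of 9 was 5 without PBS 0 h replicate 1, and TPM rescaling gave 8 rising and 5 falling at 3 h, and 3 and 3 at 0 h. Flcn rose at 3 h by 1.14, and the repressor Zkscan3 fell by 0.98 at 3 h and by 0.59 at 0 h.

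A further list covered mTORC1, which holds autophagy back, its Rag GTPases and AMPK, which promotes it. It also held genes that restrain mTORC1, among them Tsc1, Ddit4 and Sesn2, so its counts mix genes of opposite function. Of its 26 tested genes, 1 rose (3.85%) and 9 fell (34.6%) with IFN-β in spermine, and 3 rose and 14 fell (53.8%) in PBS. The mTORC1 subunit gene Akt1s1 changed by -0.87 in spermine and by -1.40 in PBS, while the GTPase gene Rragc rose in PBS by 0.77. With spermine 8 rose (30.8%) and 6 fell (23.1%) at 3 h, and 5 rose (19.2%) and 4 fell (15.4%) at 0 h. The count of 8 was 5 without replicate 1 of spermine 3 h or of PBS 3 h, and TPM rescaling gave 5 rising at each time, with 10 falling at 3 h and 13 at 0 h.

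Of 12 partners of the ULK and lipid kinase complexes, 2 rose (16.7%) and 4 fell (33.3%) with IFN-β in spermine, and 5 rose (41.7%) and 2 fell (16.7%) in PBS, or 0 and 6 in spermine and 1 and 6 in PBS after TPM rescaling. Rb1cc1, the scaffold of the ULK complex, fell in spermine by 0.80 and Epg5, a tether for lysosomes, by 0.71. With spermine 2 of the 12 rose and 2 fell at 3 h (16.7% each), and 6 rose and 1 fell at 0 h. The count of 6 was 3 without either PBS 0 h library, and TPM rescaling gave 1 rising and 3 falling at 3 h, and 2 and 4 at 0 h. Tmem41b, a lipid scramblase of the nascent membrane, rose with spermine by 0.66 at 3 h and by 0.80 at 0 h.

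Of 13 tested fusion genes, 4 rose (30.8%) and 1 fell (7.69%) with IFN-β in each treatment, while TPM rescaling gave 4 rising in spermine and 3 in PBS, with 8 falling in each. Snap29, a SNARE of autophagosome fusion, had 44.3 ± 2.61 FPKM in spermine 3 h against 17.03 ± 1.37 in spermine 0 h, and 41.7 ± 5.52 in PBS 3 h against 12.4 ± 0.182 in PBS 0 h, and rose by 1.33 and by 1.67. Rubcnl, an activator related to Rubcn, rose by 2.02 in spermine and by 2.91 in PBS. With spermine 3 of the 13 rose and 3 fell at 3 h (23.1% each), among the falls Rubcnl (-1.22), and 3 rose and none fell at 0 h. The falls at 3 h were 1 without either spermine 3 h library, and TPM rescaling gave 2 rising and 6 falling at 3 h, and 1 and 7 at 0 h.

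The 5 tested mitophagy genes were kinase and ligase genes and Usp30, which encodes an enzyme that removes ubiquitin and opposes mitophagy. With IFN-β, 3 rose in spermine, and 2 rose and 1 fell in PBS, or 1 and 1 in spermine and 2 and 2 in PBS after TPM rescaling. The fall in PBS was that of Usp30 (-0.29), a call lost without either PBS 0 h library or PBS 3 h replicate 2. March5, a ubiquitin ligase of mitochondria, had 147 ± 4.32 FPKM in spermine 3 h against 23.6 ± 0.105 in spermine 0 h, and 216 ± 0.223 in PBS 3 h against 18.4 ± 0.531 in PBS 0 h. Its changes of 2.59 and 3.49 differed by -0.89 (adjusted p = 0.00235). Tbk1, the kinase that activates Optn and the receptor p62, rose by 0.33 in spermine (0.00 after TPM rescaling) and by 0.85 in PBS. With spermine 0 rose and 2 fell of these 5 at 3 h, and 2 rose and 1 fell at 0 h, or 0 and 3, and 0 and 2, after TPM rescaling. The falls on the deposited scale were March5 (-0.55) and Usp30 (-0.26) at 3 h, and Usp30 (-0.59) at 0 h. The Usp30 call at 3 h was lost on leaving out any 1 of the 8 libraries.

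The 6 genes of LC3-associated phagocytosis, which encode the phagocyte oxidase, are too few for shares to be read. With IFN-β, 2 rose and 1 fell in spermine, and 1 rose and 2 fell in PBS. With spermine, 3 rose and 1 fell at 3 h, and 1 rose and 2 fell at 0 h. The rising count at 3 h was 1 without either spermine 3 h library or PBS 3 h replicate 1, and the falling count at 0 h was 0 without PBS 0 h replicate 1. After TPM rescaling the counts were 0 and 2 with IFN-β in spermine, 1 and 4 in PBS, 1 and 2 with spermine at 3 h, and 1 and 4 at 0 h. The oxidase core Cybb fell with spermine at 3 h by 0.70 and rose with IFN-β in PBS by 0.89.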

How the data were processed

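Values come from 1 table deposited by the authors, which gives FPKM for 54532 genes in 8 libraries with gene length and position. The submitters' processing notes name, without order or role, the builds GRCm38 and mm10 and the tools HISAT2 2.0.5, featureCounts 1.5.0-p3, fastp, CASAVA 1.8 and DESeq2 1.20.0. The sources used here do not state the strand or how shared reads were counted. Multiplied by gene length, 100% of FPKM values were whole multiples of 1 step per library (tolerance 0.001 of a read), which gave back between 15723437 and 17744844 reads per library. The lowest member count in any library was 57 reads. The deposited scale follows median-of-ratios size factors, not the library total.

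Groups and replicate numbers come from the sample titles. Of the 11421 genes that reached 1 FPKM in 2 or more libraries, log2(FPKM + 1) entered limma 3.58.1 under R 4.3.3, with data.table at 1.17.8, as 4 group means over 8 libraries, with 4 residual and 2.83 prior degrees of freedom and an intensity trend. The 5 comparisons are 3 h against 0 h of IFN-β with spermine and in PBS, spermine against PBS at either time, and the difference between the IFN-β responses. Benjamini-Hochberg adjustment ran over all genes of a comparison and does not correct for the number of comparisons. Alternatives were a pseudocount of 0.1, no filter, TPM rescaling, quantile normalization, no trend, only the 2 groups compared, a replicate block, limma voom on the rebuilt reads, and leaving out each library.

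The members, the 7 lists of neighbouring genes, the markers and the motifs were chosen with earlier results of these data known. Ulk1, Becn1, Map1lc3b, Gabarapl1, Atg5, Atg16l1 and Wipi1 were always to be named, with up to 4 rising and 4 falling called members of the largest change per comparison whose libraries do not overlap, and up to 2 rising and 2 falling genes per neighbouring list. Other members were named after their values were seen. Some results are not reported here. Exon overlaps and transcript lengths come from GENCODE M21 on GRCm38, where 33 of the 34 members have the table's position and Atg12 does not. Promoter windows come from RefSeq. Of the members' exonic bases, 5 genes share over 10% with another gene. Tables and figures were made with Python 3.11.15, numpy 2.4.6, pandas 2.3.3, scipy 1.17.1 and matplotlib 3.10.9.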

Additional observations from a re-analysis of the deposited data

Results flagged for a closer look

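The response to IFN-β in spermine less that in PBS passed the test for 3 members and is given here as the values that set them apart. Tax1bp1 changed by 0.25 with IFN-β in spermine and by 1.04 in PBS, a difference of -0.79 (adjusted p = 0.0267). Atg13 changed by -0.31 in spermine and by 0.24 in PBS, a difference of -0.55 (adjusted p = 0.0125). Pik3c3 changed by -0.35 in spermine and by 0.11 in PBS, a difference of -0.47 (adjusted p = 0.0498). TPM rescaling gave -0.68, -0.43 and -0.36 for Tax1bp1, Atg13 and Pik3c3, of which the third did not pass. No cause was tested.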

How the results depend on the processing

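Of 75 called member changes, 42 passed in the same direction under every alternative, 47 in every fit that left out 1 library, and 58 under every other alternative that kept the deposited scaling. The sign turned in 4 cases: Atg13 with IFN-β in PBS (-0.22 after TPM rescaling and -0.070 after quantile normalization), and Becn1 with IFN-β after TPM rescaling (-0.085 in spermine and -0.23 in PBS). TPM rescaling ended 15 further calls, quantile normalization 9, no filter 11, only the 2 groups compared 12, a pseudocount of 0.1 ended 2, no trend 1 and limma voom 0. Without 1 library, the counts of members changed lay between 14 and 21 for IFN-β with spermine, 15 and 24 for IFN-β in PBS, 10 and 14 for spermine at 3 h, 10 and 15 for spermine at 0 h, and 0 and 3 for the difference of the responses. The replicate block kept all 75 calls and gave counts of 21, 24, 14, 16 and 4 in that order. It also called Atg3 with spermine at 3 h (0.23, adjusted p = 0.0268) and in the difference of the responses (-0.40, adjusted p = 0.0325), Atg10 with spermine at 0 h (0.31, adjusted p = 0.0339) and Map1lc3a with spermine at 0 h (0.48, adjusted p = 0.0386). The sample titles carry BM1 or BM2 in every group, and the labels do not say whether a number marks a shared animal or culture. Correlations of the replicates' deviations between groups ranged from -0.13 to 0.37. They cannot decide whether the libraries are paired, and the main fit treats them as unpaired. A fit of only the 2 groups compared cannot give the difference of the responses. With 2 libraries per group, a member that did not pass is not shown to be unchanged, and low genes such as Atg16l2 are the least certain.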
